A study of Homo sapiens with 5 samples.

Results

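The genes described here are 58 developmental transcription factor genes of the forkhead (FOX), SOX, T-box, GATA, DMRT and OLIG families, listed by name and all found among 20037 protein-coding genes of the RefSeq annotation (GRCh38.p14) on chromosomes 1 to 22, X and Y. They comprise 21 FOX, 11 SOX, 14 T-box, 5 GATA, 4 DMRT and 3 OLIG genes. For each, H3K9me3 peaks were read in the gene body and in 5 kb on either side, together called the window. The study profiled trimethylation of lysine 9 of histone H3 (H3K9me3) by chromatin immunoprecipitation and sequencing in HEK293T, an established line from embryonic kidney that carries the SV40 large T antigen. Its 5 samples, 1 per group, were 3 H3K9me3 libraries, labelled WT, EV and KD, and 2 libraries of input DNA, from WT and EV. The label EV is taken to mean an empty-vector control of the knockdown, and KD as the KCNQ1OT1 knockdown, whose target the design text writes KCNQ1OT1_K. The sources used here do not give the knockdown method or say whether EV and KD cells came from 1 clone. Peak lists carry no marker by which to check the cell line, and RNA was not measured. Of the 3 deposited peak lists, 2 carry EV or KD in their name, and the remaining list carries no genotype. It was assigned to no sample. Its values and its overlaps with EV and KD peaks are given as a description and enter no comparison of conditions. With 1 library per group, no difference between EV and KD has a replicate check and none was tested.

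H3K9me3 marks silenced chromatin. It is laid down by methyltransferases such as SETDB1 and the SUV39H enzymes and is bound by HP1 proteins. The 6 families hold DNA-binding regulators of cell fate: forkhead proteins share a winged-helix domain, SOX proteins an HMG box, T-box proteins the domain first found in brachyury, GATA proteins zinc fingers that read the sequence GATA, DMRT proteins the DM domain of sex determination genes, and OLIG proteins a basic helix-loop-helix. Most are active in restricted embryonic tissues. In many cell types their CpG-rich promoters lie under the Polycomb mark H3K27me3, which was not measured here.

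The EV list held 24665 peaks over 50.5 Mb of these chromosomes, the KD list 12650 peaks over 20.6 Mb, and the list without a genotype 14362 peaks over 29.8 Mb. The read number behind each list is not known, and a shallower library yields fewer and shorter peaks at the same threshold. How much of the difference between the lists this makes was not tested. Fold enrichments and −log10 p of peaks are the authors' own values and are comparable only within a list.

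Peaks at these genes were as frequent in KD as in EV, although the KD list held far fewer peaks overall. A peak lay in the window of 24 of 58 genes in EV (41.4%, exact 95% interval 28.6 to 55.1) and of 24 in KD. The shares over all protein-coding genes were 29.8% in EV and 13.7% in KD. In the list without a genotype it was 7 of 58, against 8.35%. Within the body alone, EV had a peak at 18 genes and KD at 22, against 24.5% and 11.5%. Both lists had a peak at 20 genes, EV alone at 4 (SOX1, TBX5, TBX15 and GATA6) and KD alone at 4 (FOXA1, TBXT, GATA3 and OLIG2). Over all protein-coding genes, 11.9% had a peak in both, 17.9% in EV alone and 1.87% in KD alone. The equality depended on which EV peaks were used. When only the strongest EV peaks by −log10 p were kept, equal in number to the KD list, 15 genes had an EV peak against 17.2% of all protein-coding genes. A fold enrichment of at least 3 kept 14645 of the 24665 EV peaks but 11365 of the 12650 KD peaks, so it acts unequally on the lists. It left an EV peak at 13 genes and a KD peak at 22, against 17.6% and 12.1%.

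The peak often covered much of the gene. At least 10% of the gene body was covered in 11 genes in EV and in 11 in KD, against 2.75% and 1.55% of all protein-coding genes, and 7 genes met this in both, against 1.15%. With the strongest EV peaks alone, 6 genes did in EV, against 1.55%. With a fold enrichment of at least 3, 6 did in EV and 10 in KD, against 1.39% and 1.33%. These genes are short, with a median body of 5547.5 bp against 24115.0 bp, so a single peak fills a larger part of them. Among protein-coding genes with a body under 10 kb, 5.53% reached 10% in EV and 4.67% in KD. Of the 40 listed genes below that length, 11 did in EV and 10 in KD. A peak in the window was found at 17 of the 40 in EV and 18 in KD, against 14.3% and 8.80%. The covered share of the body was larger in EV for 14 of the 58 genes and larger in KD for 12, against 4585 and 634 of all protein-coding genes.

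**Figure D1:**
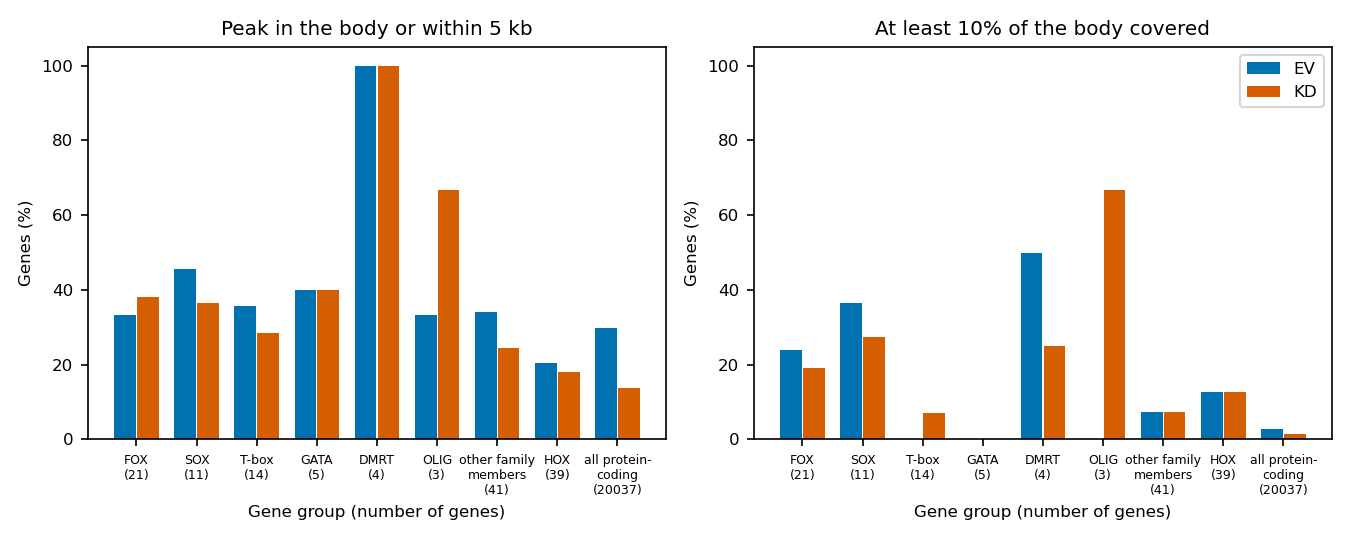
Share of genes (%, vertical axis) with a peak in the body or within 5 kb (left) and with at least 10% of the body covered (right), by gene group with its number of genes, EV in blue and KD in orange. All 4 DMRT genes had a peak in both lists, and over all protein-coding genes the left-hand shares were 29.8% and 13.7%.

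Peaks at the listed genes lay more often just downstream of the gene start than just upstream. RefSeq start sites were listed for 36 of the 58 genes, and the outermost listed start was used. A peak lay in the 2 kb downstream of it in 11 genes in EV and in 12 in KD, against 3.64% and 2.78% of 15843 protein-coding genes with a listed start. In the 2 kb upstream, EV had a peak at 3 genes and KD at 3, against 2.86% and 1.63%. In the 500 bp bin from 500 to 1000 bp after the start, peaks covered 17.2% of the bases of the 36 genes in EV and 20.4% in KD. In the bin from 1000 to 500 bp before it, they covered 2.78% and 4.24%. EV coverage was high again farther out on both sides. It was 11.1% from 4500 to 4000 bp before the start and 9.04% from 4500 to 5000 bp after it, with a peak at 4 genes in each of these bins. Over all protein-coding genes, coverage was highest in the 500 bp after the start, at 1.76% in EV and 1.23% in KD.

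**Figure D2:**
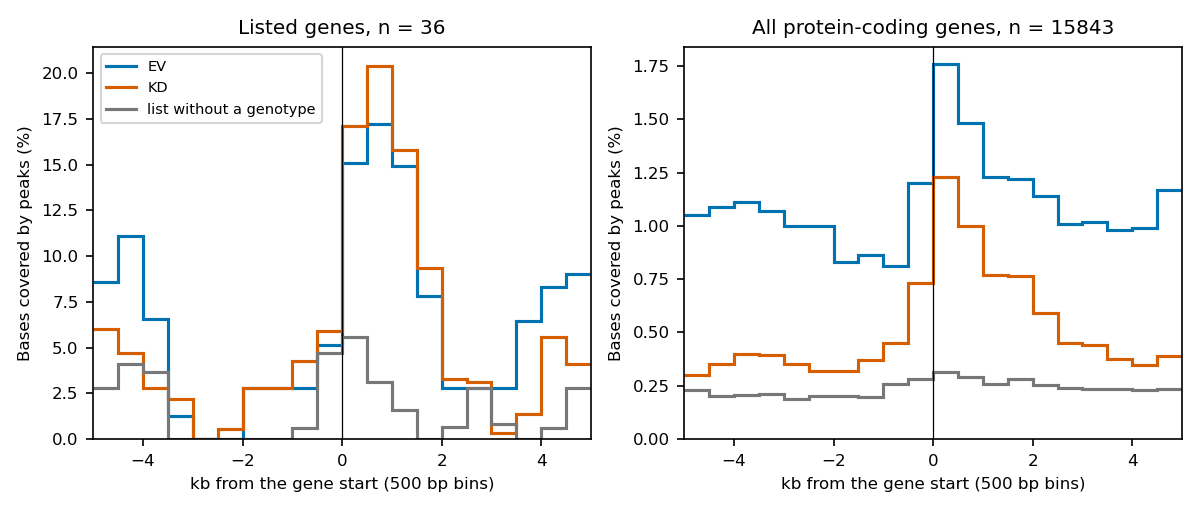
Bases covered by peaks (%, vertical axis) in 500 bp bins from 5 kb before to 5 kb after the outermost listed gene start (horizontal axis, kb), for the 36 listed genes with a start (left) and 15843 protein-coding genes (right). Among the listed genes, coverage of EV (blue) and KD (orange) is highest in the 1.5 kb after the start and low from 2 to 3 kb after it. EV is also high from 4 to 5 kb on either side of the start, where each bin rests on few genes.

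The start itself was covered in few listed genes, though in a larger share than over all protein-coding genes, a difference that was not tested. The 300 bases around a listed start (250 before to 50 after) were overlapped by an EV peak in 3 of 36 genes (FOXB2, TBX4 and DMRT2), or 8.33%. A KD peak overlapped them in 4 (TBX4, TBXT, DMRTA2 and DMRT1), or 11.1%. Over protein-coding genes with a listed start the shares were 1.99% and 1.43%. TBX4 was the only listed gene with its start under both. EV peaks lay over 254 of the 300 bases at FOXB2 and 272 at the outermost start of DMRT2. For each of the 4 genes with a start touched by a KD peak, 1 start sequence is shown. These genes include the 1 with its start under peaks of both lists and those touched in KD without EV. The sequences are from RefSeq (GRCh38.p14), 5′ to 3′ on the gene's strand, with CpG dinucleotides, the target of DNA methylation, in capitals.

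TBX4: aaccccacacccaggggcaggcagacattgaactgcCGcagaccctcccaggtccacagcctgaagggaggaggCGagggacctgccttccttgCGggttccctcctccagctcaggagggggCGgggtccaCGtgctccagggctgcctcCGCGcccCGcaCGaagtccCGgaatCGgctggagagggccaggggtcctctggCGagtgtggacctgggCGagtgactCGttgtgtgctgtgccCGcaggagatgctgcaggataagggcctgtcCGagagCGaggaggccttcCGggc

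TBXT: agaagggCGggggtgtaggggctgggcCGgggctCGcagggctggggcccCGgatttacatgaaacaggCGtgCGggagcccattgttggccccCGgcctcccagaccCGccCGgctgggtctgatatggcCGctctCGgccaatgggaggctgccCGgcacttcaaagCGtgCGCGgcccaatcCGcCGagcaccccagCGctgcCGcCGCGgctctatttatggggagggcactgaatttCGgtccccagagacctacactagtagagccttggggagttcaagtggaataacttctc

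DMRTA2: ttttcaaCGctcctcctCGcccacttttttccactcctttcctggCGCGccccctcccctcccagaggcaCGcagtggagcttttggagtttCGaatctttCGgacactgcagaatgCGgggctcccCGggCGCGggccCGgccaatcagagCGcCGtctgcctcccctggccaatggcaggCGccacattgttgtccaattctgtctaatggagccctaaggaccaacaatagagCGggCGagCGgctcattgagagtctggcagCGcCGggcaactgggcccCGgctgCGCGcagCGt

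DMRT1: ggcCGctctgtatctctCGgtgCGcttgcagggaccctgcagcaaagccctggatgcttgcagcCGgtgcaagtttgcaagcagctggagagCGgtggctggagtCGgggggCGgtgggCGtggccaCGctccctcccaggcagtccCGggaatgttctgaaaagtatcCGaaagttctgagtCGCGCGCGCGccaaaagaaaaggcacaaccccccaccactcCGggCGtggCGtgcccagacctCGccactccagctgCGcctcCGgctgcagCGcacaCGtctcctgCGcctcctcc

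The TBX4 sequence (chr17:61456238-61456537, plus strand) lies inside the annotated gene body, holds 18 CpG, and was covered over all 300 bases in both EV and KD. The TBXT sequence (chr6:166167802-166168101, minus strand) is the inner of its 2 listed starts, holds 22 CpG, and was covered over all 300 bases in KD and over none in EV. The outer TBXT start (chr6:166168606-166168905), not shown, was also covered over all 300 bases in KD and over none in EV. In DMRTA2 (chr1:50423394-50423693, minus strand, 24 CpG) the KD peak covered bases 186 to 300. In DMRT1 (chr9:841447-841746, plus strand, 25 CpG) it covered the last 8 bases, 293 to 300, while a peak of the list without a genotype covered all 300. The CpG numbers of genes with and without a peak overlapped. The median was 24.5 in the 20 genes with an EV or KD peak in the window, 22.5 in the 16 without, and 22 over all protein-coding starts. The ranges were 4 to 40 with a peak and 3 to 38 without.

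**Figure D3:**
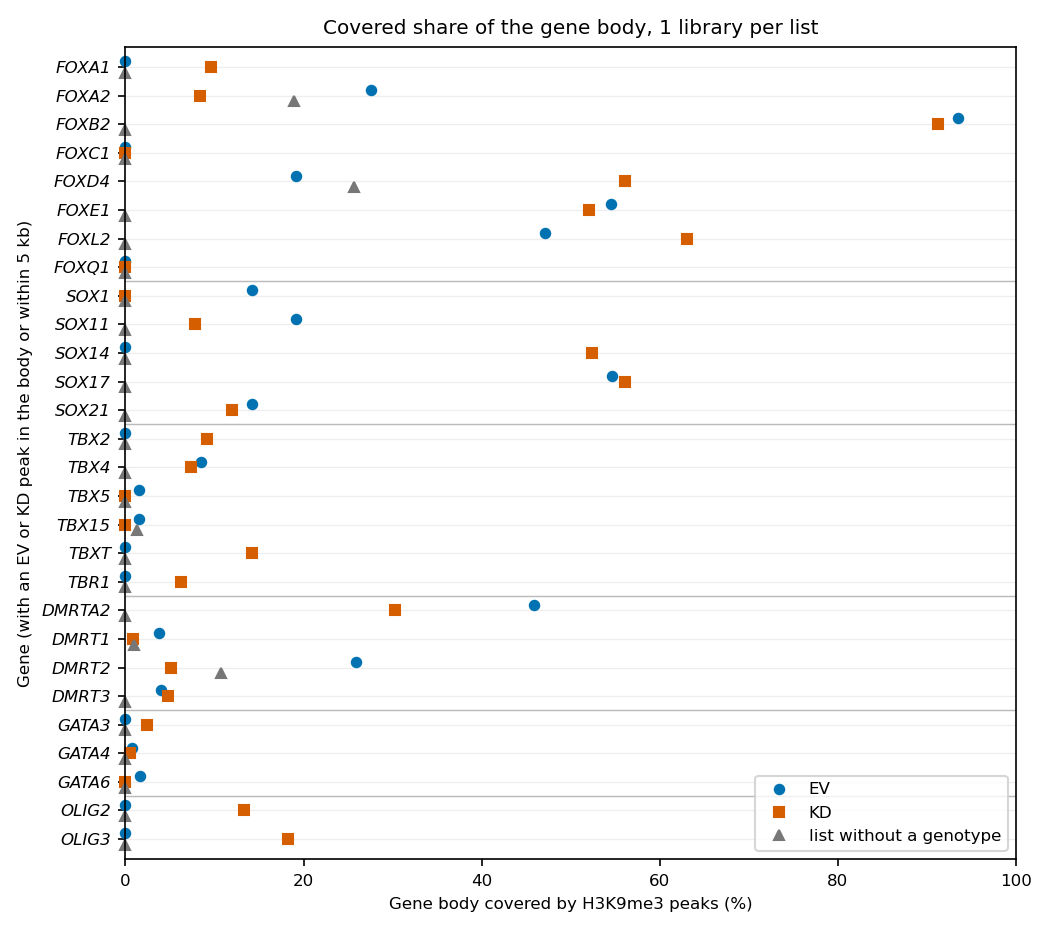
Share of the gene body covered by peaks (%, horizontal axis) for the 28 genes with an EV or KD peak in the body or within 5 kb, with EV as blue circles, KD as orange squares and the list without a genotype as grey triangles. FOXB2 stands highest, at 93.5% in EV and 91.2% in KD, and the GATA genes lie below 5% in all 3 lists.

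Of the forkhead genes, 5 in EV and 4 in KD had at least 10% of the body covered, against 2.75% and 1.55% of all protein-coding genes. Of 21, 7 had a peak in the window in EV (33.3%) and 8 in KD (38.1%), against 29.8% and 13.7%. All 7 of EV were among the 8 of KD. With a fold enrichment of at least 3, 2 of the 7 kept an EV peak (FOXA2 and FOXB2) and all 8 kept a KD peak. Peaks spanned 7.80% of their summed bodies in EV and 8.87% in KD, against 0.684% and 0.201% for all protein-coding genes. FOXB2, a forkhead gene with a body of only 1299 bp, was covered over 93.5% in EV and 91.2% in KD. Its EV peak lay at chr9:77019451-77020868, 2.36-fold enriched at a −log10 p of 4.30, and its KD peak at chr9:77019769-77020968, 4.25-fold enriched at 7.99. The peaks of both lists thus took in nearly the whole gene. A further pair of peaks lay upstream of FOXB2, at chr9:77014000-77016377 in EV and chr9:77014123-77016548 in KD.

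FOXE1, a factor of thyroid development, was covered over 54.5% of its body in EV and 52.0% in KD. The EV peak (chr9:97853295-97855196, fold enrichment 2.88, −log10 p 5.53) and the KD peak (chr9:97853297-97855113, 4.87 and 7.92) began 69 and 71 bp after the start. FOXL2, which maintains ovarian granulosa cells, was covered over 47.1% in EV and 63.1% in KD. Its EV peak (chr3:138945386-138946758, fold enrichment 2.75, −log10 p 4.48) lay wholly inside its KD peak (chr3:138945046-138946884, 4.27 and 5.37). Both genes had their peak in the same place in the 2 lists and none in the list without a genotype.

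FOXA1 and FOXA2 encode pioneer factors of endoderm and its organs. FOXA1 had no EV peak within 137021 bp and a KD peak over 9.58% of its body (chr14:37592195-37592740, fold enrichment 3.61, −log10 p 8.26). FOXA2 was covered over 27.6% in EV, 8.39% in KD and 18.9% in the list without a genotype. Its EV peak (chr20:22581835-22583072, fold enrichment 3.13, −log10 p 4.26) and its KD peak (chr20:22582736-22583112, 3.66 and 4.08) shared 337 bp.

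FOXD4, near the end of the short arm of chromosome 9, was covered over 19.1% in EV, 56.1% in KD and 25.7% in the list without a genotype. The KD peak in its body lay at chr9:116662-117887 (fold enrichment 4.56, −log10 p 6.47) and the EV peak at chr9:117580-117997 (2.57 and 4.05). Downstream of the gene, over the long non-coding RNA gene LINC01388, lay a stronger pair, at chr9:113195-114694 in EV (2.81 and 5.94) and chr9:113144-114644 in KD (4.83 and 8.10). FOXD4 has near-identical copies, the FOXD4L genes, whose reads can be assigned to the wrong copy, so these values are uncertain. Of the 5 copies, FOXD4L1 on chromosome 2 had no peak in any list. FOXD4L4 was covered over 70.4% in EV and 80.9% in KD, FOXD4L5 over 27.1% and 37.0%, FOXD4L3 over 40.8% in EV with no KD peak, and FOXD4L6 over 53.2% in KD with no EV peak.

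FOXC1 and FOXQ1, both on chromosome 6, had peaks outside the body only. FOXC1, which acts in eye and mesenchyme development, had peaks upstream, 4812 bp away in EV and 4382 bp away in KD. FOXQ1, a factor of epithelial cells, had peaks 4492 bp away in EV and 4485 bp away in KD, and in the list without a genotype 4383 bp away. The FOXQ1 peaks (chr6:1319250-1320660 in EV, chr6:1319243-1320602 in KD) had a −log10 p of 8.76 and 8.58. These 2 genes and SOX14, whose EV peak is described with the SOX genes, are those just inside the 5 kb limit. Just outside it were FOXF2, with a KD peak 5144 bp away, and FOXH1, with an EV peak 5392 bp away.

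**Figure D4:**
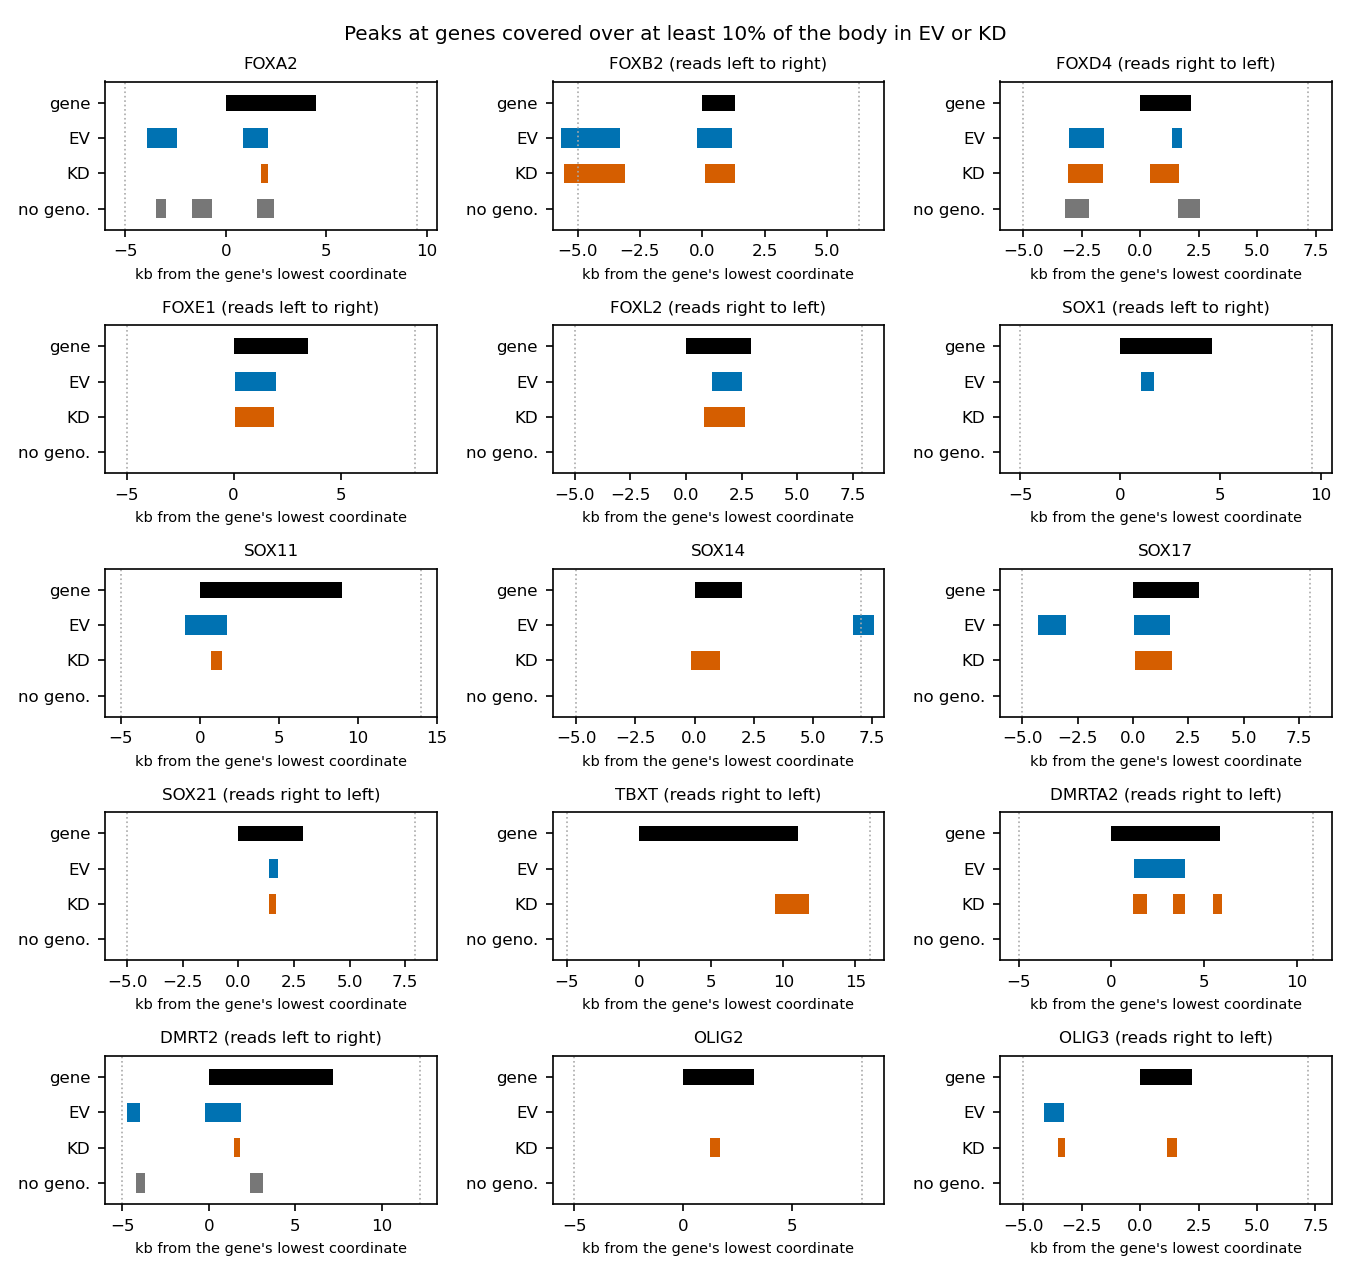
Peaks of EV (blue), KD (orange) and the list without a genotype (grey, marked no geno.) at the 15 genes covered over at least 10% of the body in EV or KD, with the gene as a black bar, in kb from its lowest coordinate (horizontal axis). Dotted lines mark 5 kb either side, and the direction of transcription is given where a start was listed. FOXE1 and SOX17 carry EV and KD peaks in the same place, while TBXT and OLIG2 carry a KD peak and no EV peak.

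Among SOX genes, 5 of 11 had a peak in the window in EV (45.5%) and 4 in KD (36.4%), against 29.8% and 13.7% of all protein-coding genes. None had one in the list without a genotype, against 8.35%. With a −log10 q of at least 2, or with the strongest EV peaks alone, 3 kept an EV peak. Peaks spanned 7.89% of their summed bodies in EV and 6.78% in KD. SOX17, an endoderm and endothelial factor, was covered over 54.6% in EV (chr8:54457995-54459609, fold enrichment 2.95, −log10 p 6.83) and 56.1% in KD (chr8:54458020-54459677, 4.16 and 6.05). EV had a further peak outside the body, at chr8:54453630-54454903, that KD lacked. SOX21, a factor of neural progenitors, had a short peak in the same place in both, over 14.2% in EV (chr13:94710988-94711401, fold enrichment 3.69, −log10 p 7.42) and 12% in KD (chr13:94710980-94711331, 3.95 and 6.18).

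In SOX11, SOX14 and SOX1 the lists differed in coverage. SOX11, a factor of immature neurons, was covered over 19.1% in EV (chr2:5691435-5694098, fold enrichment 3.44, −log10 p 5.13) and 7.79% in KD (chr2:5693089-5693789, 3.92 and 4.48), the KD peak lying wholly inside the EV peak. SOX14, also neuronal, was covered over 52.4% in KD (chr3:137764180-137765372, fold enrichment 3.28, −log10 p 3.87), while its EV peak lay 4660 bp outside the body, and the peaks did not overlap. Both SOX14 peaks have a −log10 q under 2 and are lost at that threshold, as is the SOX1 peak. SOX1, a marker of neural progenitors, was covered over 14.2% in EV (chr13:112068203-112068849, fold enrichment 3.26, −log10 p 4.05), with the nearest KD peak 32675 bp away. SOX2, which sustains pluripotent and neural stem cells, had no peak in its window in any list.

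T-box genes had few covered bodies. Of 14, 5 had a peak in the window in EV (35.7%) and 4 in KD (28.6%), against 29.8% and 13.7% of all protein-coding genes. TBXT alone reached 10% of the body, in KD. With a −log10 q of at least 2, a fold enrichment of at least 3 or the strongest EV peaks alone, 2 genes kept an EV peak under each. TBXT encodes brachyury, the factor of early mesoderm and notochord. Its KD peak (chr6:166167090-166169419, 2330 bp, fold enrichment 3.82, −log10 p 4.53) covered 14.2% of the body and the start sequence shown above, and it also lay over the long non-coding RNA gene LNCDAT. The nearest EV peak was 7213 bp away. TBX4, a hindlimb factor, carried a peak over its listed start in both, at chr17:61454483-61456803 in EV (fold enrichment 2.83) and chr17:61454389-61456792 in KD (3.90), and peaks lay over 8.47% of its body in EV and 7.35% in KD.

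In TBX2, a cardiac and limb repressor, and TBR1, a factor of cortical neurons, both lists had a peak but in different places. The KD peak lay in the body, over 9.12% of TBX2 and 6.29% of TBR1, and the EV peak outside it, 2885 and 1382 bp away. TBX5, a factor of forelimb and heart, had a single EV peak over 1.56% of its body and no KD peak within 289600 bp. TBX15, a skeletal factor, had 2 EV peaks and no KD peak, and the list without a genotype had a peak between them. EOMES, a close relative of TBR1, had no peak in its window, with the nearest EV peak 249700 bp away.

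All 4 DMRT genes had a peak in both lists, and 3 of them in the list without a genotype as well. Over all protein-coding genes these shares were 11.9% and 3.61%. DMRTA2, a factor of cortical progenitors, held the KD peak of highest fold enrichment among the 58 genes, 5.29 (chr1:50418703-50419462, −log10 p 8.77). Its body was covered over 45.9% in EV by a single peak (chr1:50418798-50421505, fold enrichment 3.16, −log10 p 7.59) and over 30.3% in KD by 3 shorter peaks. DMRT1, a regulator of testis fate, DMRT3, of spinal interneurons, and DMRT2, of somites, are neighbours on chromosome 9. Each carried an EV and a KD peak that overlapped one another inside the body.

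EV had more peaks between and within the DMRT genes of chromosome 9 than KD. DMRT1 had 5 EV peaks in its window and 1 KD peak, the latter at chr9:841739-842852, beginning 42 bp after its first listed start. Peaks lay over 3.81% of its body in EV and 0.874% in KD. The EV peak at chr9:970500-972950, between DMRT1 and DMRT3 and counted for both, was overlapped over 2235 bp by the list without a genotype and by no KD peak. DMRT2 was covered over 25.9% in EV (chr9:1050135-1052218, fold enrichment 4.03, −log10 p 7.29) and 5.07% in KD (chr9:1051822-1052186, 3.21 and 4.97). DMRT3 was covered over 4.03% and 4.75%. Over the DMRT windows, covered length in KD was 0.301 of that in EV, beside 0.298 for all protein-coding windows.

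GATA genes, regulators of blood, heart and endoderm, had peaks over small parts of their bodies. A peak lay in the window of 2 of 5 in EV and 2 in KD, against 29.8% and 13.7% of all protein-coding genes. GATA4, a cardiac factor, had an EV peak (chr8:11708274-11708843) and a KD peak (chr8:11708301-11708767) that shared 467 bp, over less than 1% of its body. GATA3, a factor of T cells and kidney duct epithelium, had a KD peak (chr10:8051347-8052083, fold enrichment 3.88, −log10 p 5.02) and no EV peak within 16349 bp. GATA6 had an EV peak over 1.59% of its body and no KD peak within 741675 bp. The GATA3 peak also lay over GATA3-AS1, and reads of a ChIP library carry no strand by which to assign it.

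In the OLIG genes, 2 of 3 bodies held a KD peak and none an EV peak, against 11.5% and 24.5% of all protein-coding genes. This difference was not tested. In the window, KD had a peak at 2 of the 3 genes and EV at 1, against 13.7% and 29.8%. OLIG2, a factor of oligodendrocytes and motor neurons, was covered over 13.3% in KD (chr21:33027193-33027623, fold enrichment 2.81, −log10 p 5.03), and the nearest EV peak was 225230 bp away. The OLIG2 peak is lost at a fold enrichment of at least 3. OLIG3, of the dorsal spinal cord, was covered over 18.3% in KD (chr6:137493351-137493752, fold enrichment 3.98, −log10 p 7.96). Outside the body of OLIG3, an EV peak at chr6:137488097-137488951 and a KD peak at chr6:137488666-137488978 overlapped by 286 bp. OLIG1 had no peak in its window.

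On chromosome 9 every listed gene had a peak. All 6 of them, FOXB2, FOXD4, FOXE1, DMRT1, DMRT2 and DMRT3, had one in the window in both EV and KD, and 4 did in the list without a genotype. Over all protein-coding genes of that chromosome the shares were 30.3%, 14.8% and 8.87%. On the other chromosomes EV had a peak at 18 of 52 listed genes (34.6%), and so did KD. Over all protein-coding genes of those chromosomes the shares were 29.8% in EV and 13.7% in KD. Without chromosome 9, 7 genes in EV and 8 in KD reached 10% of the body. On all chromosomes, 2.75% and 1.55% of protein-coding genes did. Chromosome 9 was singled out after its values were seen. The 3 DMRT genes are neighbours, and FOXD4 has near-identical copies, so the 6 are not independent.

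In all, 30 genes had no EV or KD peak in the window, against 68.4% of all protein-coding genes. They are FOXA3, FOXB1, FOXC2, FOXD1, FOXD2, FOXD3, FOXE3, FOXF1, FOXF2, FOXH1, FOXI1, FOXJ1 and FOXL1; SOX2, SOX7, SOX8, SOX9, SOX10 and SOX18; TBX1, TBX3, TBX6, TBX18, TBX19, TBX20, TBX21 and EOMES; GATA2 and GATA5; and OLIG1. Their median body length, 5303.5 bp, was close to the 5796.0 bp of the 28 genes with a peak.

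Covered length fell less steeply from EV to KD in the windows of the 58 genes than in protein-coding windows in general, a difference that 1 library per group cannot test. Peaks lay over 2.84% of the joined windows in EV and 1.95% in KD, so KD had 0.686 of the EV length. For all protein-coding genes the values were 0.713%, 0.212% and 0.298. In the windows of 41 other genes of the same families, KD had 0.511 of the EV length. The families within the 58 genes differed, from 0.301 in DMRT and 0.561 in SOX to 1.34 in OLIG. For the listed genes this fraction was 0.826 in the gene bodies, 0.425 in the 5 kb flanks and 0.459 in the flanks from 5 to 50 kb. With only the strongest EV peaks, equal in number to the KD list, the fraction in the windows was 1.22, against 0.555 over all protein-coding genes. Covered length follows the depth of each library as well as the mark, so these fractions cannot be read as amounts of H3K9me3.

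**Figure D5:**
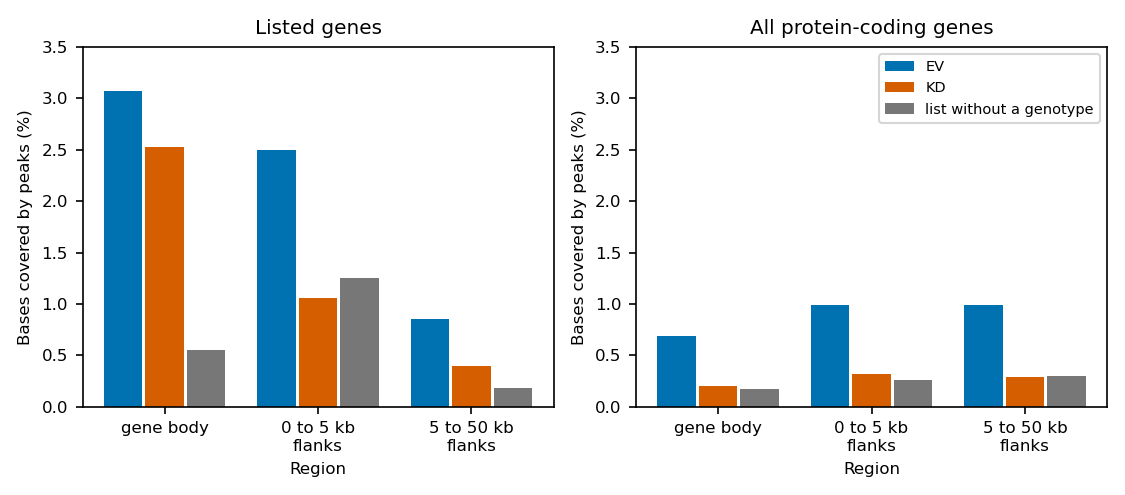
Bases covered by peaks (%, vertical axis) in gene bodies, in the 5 kb flanks and in the flanks from 5 to 50 kb, for the 58 listed genes (left) and all protein-coding genes (right), by list. Coverage of the listed genes falls from the body outward in EV and KD, from 2.53% to 1.06% and 0.393% in KD, and is highest in the 5 kb flanks in the list without a genotype, at 1.25%. That of all protein-coding genes stays between 0.201% and 0.322% in KD.

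EV and KD peaks at these genes often overlapped. Of 35 EV peaks in the windows, 20 were overlapped by a KD peak (57.1%, exact 95% interval 39.4 to 73.7), and of 30 KD peaks, 21 by an EV peak (70.0%, 50.6 to 85.3). In the windows of all protein-coding genes these shares were 28.0% and 78.9%. The shared portion was larger among stronger EV peaks, with intervals that overlap. Below a −log10 p of 5, 7 of 19 EV peaks at the listed genes were found in KD (36.8%, 16.3 to 61.6), and 13 of 16 at 5 or above (81.2%, 54.4 to 96.0). For all protein-coding windows these shares were 11% and 54.6%. Of the EV peaks, KD shared 9 of 10 at FOX genes, 3 of 6 at SOX genes and 2 of 7 at T-box genes. Within each list, peak strength at these genes was near that in all protein-coding windows, with a median −log10 p of 4.48 in EV against 4.39, and 5.30 in KD against 4.85. Their median fold enrichment was 2.95 against 3.01 in EV and 3.85 against 3.66 in KD.

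Relatives and other developmental genes are given for comparison, with no test between the groups. Of 41 other genes of the same families, 14 (34.1%) had a peak in the window in EV and 10 (24.4%) in KD, and 3 reached 10% of the body in each list. These were FOXL3 (62.9% and 49.6%), FOXI2 (50.2% and 18.1%) and SOX3 (51.2% and 62.1%), the last a neural factor close to SOX1 and SOX2. Of 39 HOX genes, 8 (20.5%) had a peak in the window in EV and 7 (17.9%) in KD, which had 0.859 of the EV covered length. All of these but HOXA13, which had an EV peak, lie in the HOXD cluster, where neighbouring windows overlap. Of 250 ZNF genes on chromosome 19, EV had a peak at 173 (69.2%) and KD at 79 (31.6%), with 0.138 of the length.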

How the data were processed

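H3K9me3 ChIP-seq in HEK293T was analysed from 3 deposited lists of broad peaks without headers. Alignment with Bowtie2, peak calling with MACS2 and build GRCh38 are named in the submitters' processing notes, without versions. The sources used here do not name options, controls, filters or pooling. Per the deposited files, each peak has a fold enrichment, a ratio over the caller's background, and a −log10 p and −log10 q, all the authors' values. The deposited score is 10 times the −log10 q and was not used further. The EV and KD lists hold no −log10 q under 1.00, and no list holds read counts, so the depth and its precision are unknown. Intervals are exact Clopper-Pearson 95% intervals (scipy 1.17.1) and cover counting error over genes or peaks only.

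Peaks on chromosomes 1 to 22, X and Y were set on RefSeq gene positions (GRCh38.p14), which hold no exons. A gene was counted when at least 1 bp of its body or of the 5 kb on either side lay under a peak, or when at least 10% of its body did. Windows of FOXC2 and FOXL1, and of DMRT1 and DMRT3, overlap and were joined for covered lengths. RefSeq start sequences matched 36 of the 58 genes. Overlaps were computed in Python 3.11.15 with numpy 2.4.6 and pandas 2.3.3, and matched bedtools 2.31.1 on simulated data. Plots used matplotlib 3.10.9.

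Genes with an EV or KD peak are named, with peak values for those covered over 10%, those with a KD peak alone and the 6 of highest fold enrichment. The genes and lists were chosen with earlier results of these data known. Body length under 10 kb, the split at a −log10 p of 5 and the chromosome 9 setting were added after seeing the data. The alternatives tried were a −log10 q of at least 2, a fold enrichment of at least 3, equal peak numbers, merged peaks, other windows and stricter overlap.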

Additional observations from a re-analysis of the deposited data

Results flagged for a closer look

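The list without a genotype in its name lies outside the comparison of KD with EV. It had a peak in the window of 7 of the 58 genes, more than the 3 that a count of 0 allows: FOXA2, FOXD4, FOXQ1, TBX15, DMRT1, DMRT2 and DMRT3. Over all protein-coding genes the share was 8.35%, and over the 58 genes 12.1% (exact 95% interval 4.99 to 23.3), an interval that holds the share over all genes. Of its 12 peaks at these genes, 8 were overlapped by an EV peak (66.7%) and 5 by a KD peak (41.7%). In all protein-coding windows these shares were 25.9% and 16.3%, and the difference was not tested. At 4 genes, FOXA2, FOXD4, FOXQ1 and DMRT1, an EV peak overlapped both a KD peak and one of this list. The share of all protein-coding genes with such an overlap was not computed. The list without a genotype had no peak at any SOX, GATA or OLIG gene of the set. Input libraries have no peak list here, so no control level was measured.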

How the results depend on the processing

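No paired analysis was possible because each group has 1 library. Of 78 recomputed values not split by family, 59 stayed within 1.5 times the reported count or within an interval, and 19 did not. The setting without chromosome 9 gave 4 of the 78, from 52 genes. By family, 18 of 96 counts moved by more than 1.5 times, and of 192 calls of single genes, 32 were lost, all with a stricter −log10 q or fold enrichment or with equal peak numbers. The cause was not tested, beyond that these settings keep fewer peaks or genes or ask more overlap. At equal peak numbers, EV had 15 genes with a peak in the window, 10 with one in the body and 6 covered over 10%. KD alone then had 10 genes and EV alone 1, and 81.2% of EV and 46.7% of KD peaks were shared. At a fold enrichment of at least 3, EV had 13, 10 and 6 genes and 1 covered start, KD alone had 12 genes, and 32.1% of KD peaks were shared. With 2 kb windows KD alone had 7 genes. At 20% of the body, 7 genes were left in EV and 7 in KD. With a reciprocal overlap of 50%, 34.3% of EV and 40.0% of KD peaks were shared. For genes with a peak in KD or EV alone, and for shared peaks, the shares over all protein-coding genes were not computed under these settings. Whether these shifts are particular to the listed genes is therefore not known. Without chromosome 9, a setting added after seeing the data, 7 genes in EV reached 10%. The KD/EV ratio of covered length ran from 0.643 with 10 kb windows to 1.25 at a fold enrichment of at least 3. The interval used for this ratio, 0.508 to 1.44, was built from peak numbers and not from covered length. The 1.25, and the 1.22 at equal peak numbers, were therefore counted as within it. Both nevertheless reverse the direction of the reported 0.686. Merging moved none of 13 values over all genes. A −log10 q of at least 2 moved none of these 13, but EV lost its peak at SOX1, SOX14, TBX2, TBX5, TBR1 and OLIG3 and KD at FOXA2, SOX14, TBX2 and GATA4. EV counts then were 3 SOX, 2 T-box and 0 OLIG genes, and KD had 1 GATA gene. Depth limits every absence: a gene without a peak may carry the mark below the caller's threshold.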

Other observations

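Long non-coding RNA genes shared some of these peaks. Of 65 EV and KD peaks at the listed genes, 11 also lay over such a gene, at FOXA2, FOXC1, FOXD4, SOX1, SOX17, TBX2, TBX4, TBXT and GATA3. The share for peaks in all protein-coding windows was not computed, so whether 11 is many or few is not known.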
